A study of Mus musculus with 24 samples.

Results

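Of the 10 genes described here, Isg15, Uba7, Herc6 and Usp18 encode the ubiquitin-like protein ISG15 and its conjugation machinery. Parp9, Parp14 and Dtx3l encode the antiviral PARP enzymes with their partner, and Bst2, Rsad2 and Cmpk2 encode 3 other antiviral factors. All 10 genes were chosen by name from a table of 52636 mouse genes and were found in it. They passed the filter on low values in every comparison. RNA was sequenced from 24 samples of MC38, a mouse colorectal cancer cell line of C57BL/6 origin, with 3 samples from each of 8 lines. The study engineered the glycans on these cells, and the comparisons ask whether each engineered line differs from its mock line. MC38-WT was unmodified and was the only line grown without puromycin, at passages 7 to 9. MC38-MOCK#1 received CRISPR/Cas9 with no target gene and was compared, at passages 4 to 6, with MC38-COSMC KO (knockout of C1galt1c1, the chaperone of the T-synthase), MC38-CMAS KO (knockout of Cmas, which activates sialic acid) and MC38-DKO (both genes targeted). MC38-MOCK#2 carried the dCas-VPR activator with no target and was compared, at passages 6 to 8, with MC38-FUT9 (activation of the fucosyltransferase gene Fut9) and, at passages 7 and 8, with a line labelled FUT4. The C1galt1c1 knockout was obtained by sorting cells with much Tn antigen as a pool, so that line is a mixed population and not a clone, and how the other lines were selected is not given in the sources used here.

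Type I interferon acts through a receptor at the cell surface and induces genes that carry the interferon-stimulated response element (ISRE) in their promoters. ISG15 is one of the most strongly induced targets: UBA7 activates it, UBE2L6 carries it, HERC6 is the main ligase in the mouse, and USP18 removes it again and also dampens signalling at the interferon receptor. PARP9 and the ligase DTX3L work as a complex, and PARP14 attaches single ADP-ribose units to proteins. BST2 (tetherin) holds budding virus at the cell surface, RSAD2 (viperin) makes a nucleotide that ends viral RNA chains, and CMPK2 is a nucleotide kinase whose gene is the neighbour of Rsad2.

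Promoter sequences of 7 of the 10 genes were found in the RefSeq table for GRCm38.p6, which holds 250 bases before and 50 bases after each start. Those of Isg15, Bst2 and Rsad2 are shown because they hold the ISRE core, GAAA and again GAAA with any 2 bases between them, searched on both strands with overlapping matches allowed. The stretches run 5′ to 3′ on the strand of the gene, end before its start, and have the matches in capitals. They are chr4:156200845-156200926 for Isg15, chr8:71537557-71537632 for Bst2 and chr12:26456533-26456602 for Rsad2, all of minus-strand genes.
Isg15: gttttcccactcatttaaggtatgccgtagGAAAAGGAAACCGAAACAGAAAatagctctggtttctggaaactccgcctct
Bst2: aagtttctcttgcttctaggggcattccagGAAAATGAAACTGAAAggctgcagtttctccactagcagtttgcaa
Rsad2: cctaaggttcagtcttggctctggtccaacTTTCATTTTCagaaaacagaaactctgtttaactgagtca
Isg15 has 3 overlapping matches from -78 to -57 relative to the start, Bst2 has 2 from -130 to -115, and Rsad2 has 1, on the opposite strand, from -120 to -111. The core is present for 3 of the 7 genes found and for 3.99% of all 27025 genes of the table (3.44% of its 32851 promoters). The core of the other interferon element, GAS (TTCNNNGAA), is present for 9.55% of all genes (8.30% of all promoters). It is present for 1 of the 7 genes, Bst2, where it runs from -136 to -128 and overlaps an ISRE match. A match is a stretch of letters and not a measured binding site.

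Values are given as normalized counts, that is, reads assigned to a gene after scaling for the size of the library and rounding. Their totals lay between 10911849 and 12263307 per sample, and the spacing of the rounded values gave an estimated 6760000 to 16230000 reads per library (rounded). Samples 1 and 3 of the line labelled FUT4, both at passage 7, were the most alike of all pairs but differed by more than counting noise and were kept apart. C1galt1c1 was at 124 to 163 normalized counts in MC38-COSMC KO and at 220 to 251 in MC38-MOCK#1, whereas its 166 to 206 in MC38-DKO overlapped the 152 to 215 of MC38-CMAS KO. Cmas was at 93 to 142 in MC38-CMAS KO and MC38-DKO and at 272 or more elsewhere. Fut9 was at 641 to 955 in MC38-FUT9 and also at 171 to 209 in the line labelled FUT4, where Fut4 itself was listed at 0 or 1, so the RNA goes against that label. Of 10 epithelial markers, 7 (Epcam and Cdx2 among them) stayed at 3 or less in every sample, and so did 7 of 10 leukocyte markers. The other leukocyte markers, Ptprc, Cd68 and Csf1r, exceeded 3 in at least 1 sample, and the highest value was 63. The sum of all 10 leukocyte markers was 23 to 66 per sample. Among the epithelial markers Krt20 was an exception, with 263 to 468 normalized counts in the line labelled FUT4 and 30 to 44 in MC38-CMAS KO. All 20 interferon ligand genes stayed at 3 or less, 16 of them at 0 in all 24 samples.

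Per kb of exon, Bst2 was the most abundant of the 10 genes, with a median over the 8 line means of 1351 normalized counts per kb, followed by Isg15 with 278. Parp9 (96.0) and Dtx3l (86.1) came next, Rsad2 had 48.5 and Usp18 24.6, and Uba7 was the lowest with 6.25 normalized counts per kb. The mean on the log2 scale was lowest in MC38-FUT9 for each of the 10 genes. It was highest in MC38-MOCK#1 for Usp18, Parp9, Dtx3l, Parp14 and Bst2, in MC38-WT for Isg15, Rsad2 and Cmpk2, and in MC38-MOCK#2 for Uba7 and Herc6. With the 8 lines of each gene placed in the order of their means, the samples of neighbouring lines overlapped in 59 of 70 cases. Of the 11 that did not overlap, 10 were the step down to MC38-FUT9 and 1 was Bst2 in MC38-MOCK#1 (1335 to 2166 normalized counts) above MC38-DKO (1275 to 1316). Fewer cells that transcribe a gene and less RNA per cell cannot be told apart in these bulk samples.

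**Figure D1:**
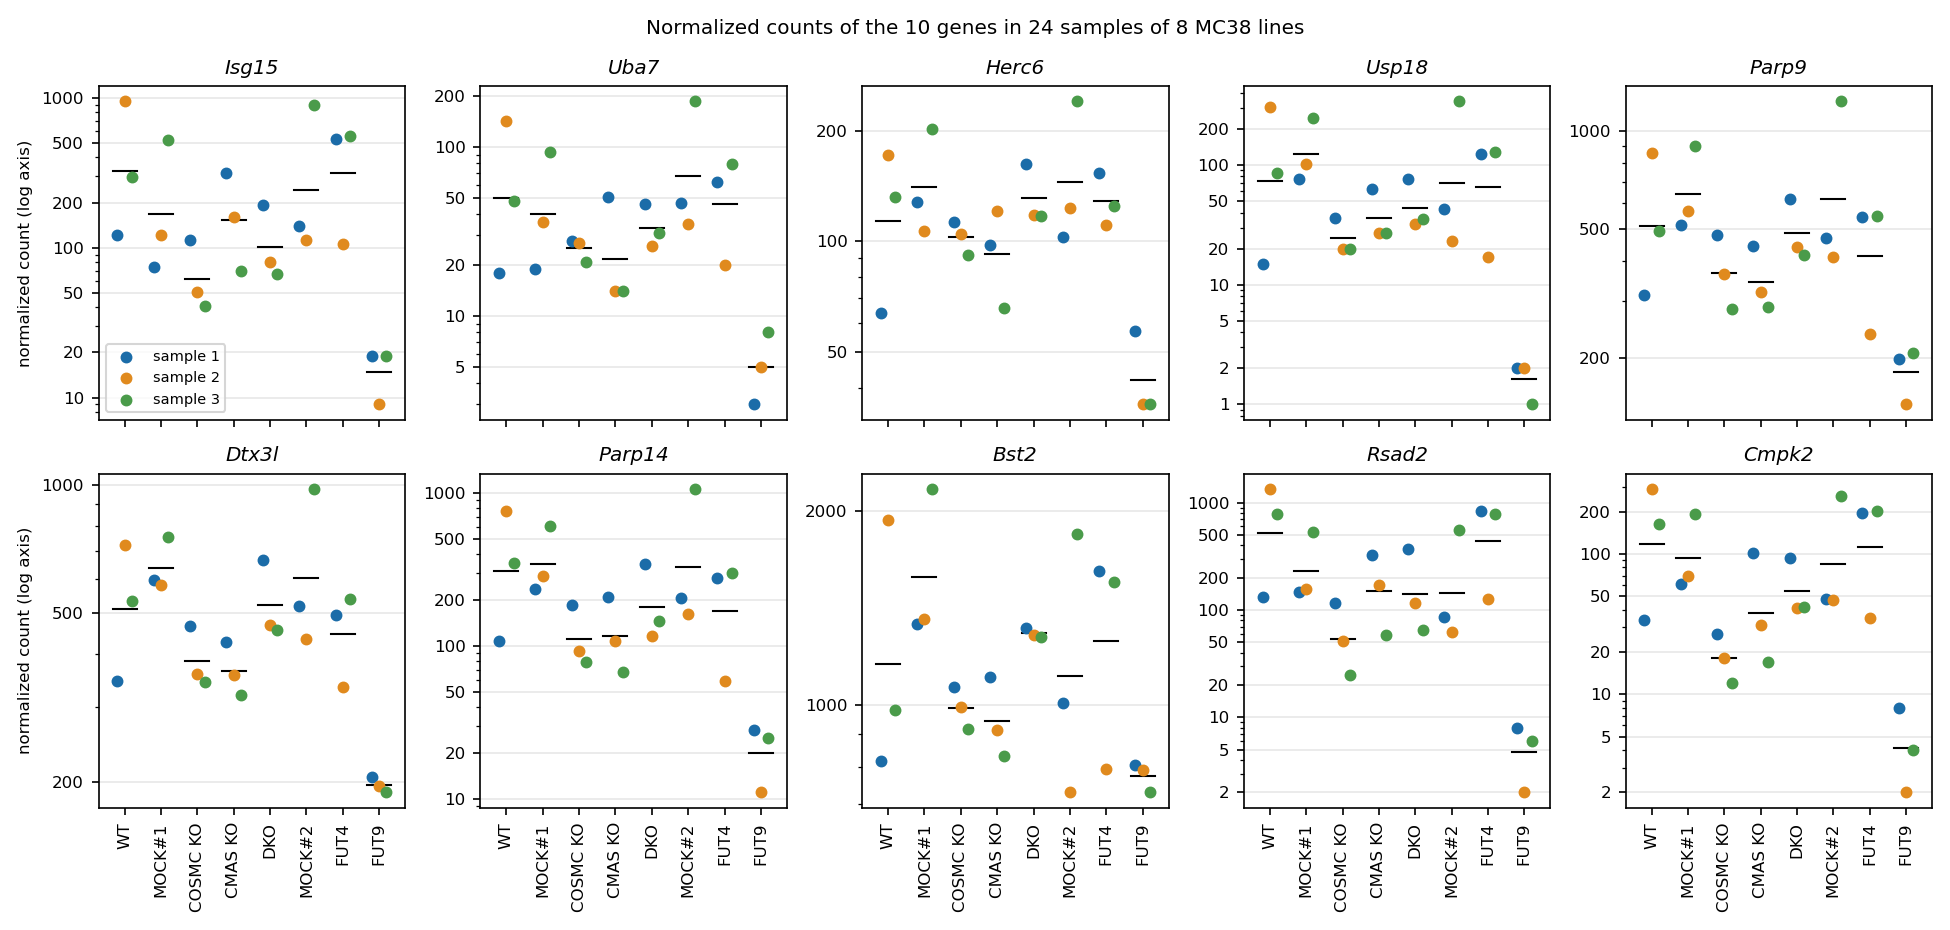
Normalized counts (log axis, a different range in each panel) of the 10 genes in each of the 24 samples, with 1 point per sample coloured by sample number and a bar at the mean of the line on the log2(value + 1) scale. The 3 points of MC38-FUT9 lie below those of every other line except for Bst2, and 1 or 2 high samples stand out in MC38-WT, both mock lines and the line labelled FUT4.

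Isg15 (ENSMUSG00000035692, minus strand of chromosome 4, 156199424 to 156200818) spans 2 exon blocks and encodes the modifier itself. It had 121, 949 and 298 normalized counts in samples 1 to 3 of MC38-WT, 74, 122 and 521 in MC38-MOCK#1, 113, 51 and 41 in MC38-COSMC KO, 314, 161 and 70 in MC38-CMAS KO and 192, 80 and 67 in MC38-DKO. In the lines with dCas-VPR it had 140, 113 and 896 in MC38-MOCK#2, 531, 106 and 553 in the line labelled FUT4 and 19, 9 and 19 in MC38-FUT9. A single high sample lifted MC38-WT and both mock lines, the line labelled FUT4 had 2 high samples and 1 low one, and MC38-FUT9 lay below all others.

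Usp18 (ENSMUSG00000030107, plus strand of chromosome 6, 121245906 to 121270917), the ISG15 protease, had 15, 303 and 85 normalized counts in MC38-WT, 76, 102 and 246 in MC38-MOCK#1, 36, 20 and 20 in MC38-COSMC KO, 63, 27 and 27 in MC38-CMAS KO and 76, 32 and 35 in MC38-DKO. It had 43, 23 and 340 in MC38-MOCK#2, 124, 17 and 128 in the line labelled FUT4, and 2, 2 and 1 in MC38-FUT9. Within MC38-WT its highest sample was 20.2 times its lowest, the widest spread of any of the 10 genes in any line. Uba7, the activating enzyme (ENSMUSG00000032596, chromosome 9), ranged from 14 to 187 normalized counts in the 21 samples outside MC38-FUT9 and was at 3, 5 and 8 within it. Herc6, the ligase (ENSMUSG00000029798, chromosome 6), ranged from 64 to 241 and was at 57, 36 and 36 in MC38-FUT9. Uba7, Herc6, Usp18, Parp9 and Parp14 each overlap an annotated Gm gene, and reads assigned to both would have been left out of the counts.

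Parp9 and Dtx3l lie head to head on chromosome 16 and overlap by 682 bases, 458 of them in exons of both genes on opposite strands. The authors left out reads that overlap several genes, and whether strand was used in counting is not given in the sources used here. Dtx3l (ENSMUSG00000049502, minus strand, 35926511 to 35939151) had 345, 720 and 532 normalized counts in MC38-WT, 596, 580 and 752 in MC38-MOCK#1, 465, 358 and 344 in MC38-COSMC KO, 427, 356 and 320 in MC38-CMAS KO and 666, 467 and 456 in MC38-DKO. It had 519, 434 and 976 in MC38-MOCK#2, 494, 335 and 538 in the line labelled FUT4 and 205, 196 and 189 in MC38-FUT9. Its spread within lines was the smallest of the 10 genes, and both single knockouts of C1galt1c1 and Cmas lay wholly below MC38-MOCK#1.

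Parp9 (ENSMUSG00000022906, plus strand, 35938470 to 35972605) followed Dtx3l closely, with 237 to 1240 normalized counts outside MC38-FUT9 and 199, 144 and 207 within it. Parp14 (ENSMUSG00000034422, minus strand, 35832874 to 35871544), which lies 54966 bases from Dtx3l, had 108, 761 and 350 in MC38-WT, 235, 288 and 605 in MC38-MOCK#1, 184, 93 and 79 in MC38-COSMC KO, 209, 108 and 68 in MC38-CMAS KO and 345, 116 and 146 in MC38-DKO. It had 207, 161 and 1061 in MC38-MOCK#2, 279, 59 and 298 in the line labelled FUT4 and 28, 11 and 25 in MC38-FUT9. Parp14 varied far more than its neighbours, and its ratio to Parp9 was 0.0764 to 0.141 in MC38-FUT9 against 0.237 to 0.887 in the other lines.

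Bst2 (ENSMUSG00000046718, minus strand of chromosome 8, 71534255 to 71537456) had 816, 1938 and 982 normalized counts in MC38-WT, 1335, 1360 and 2166 in MC38-MOCK#1, 1066, 993 and 915 in MC38-COSMC KO, 1105, 914 and 833 in MC38-CMAS KO and 1316, 1282 and 1275 in MC38-DKO. It had 1006, 730 and 1846 in MC38-MOCK#2, 1615, 795 and 1552 in the line labelled FUT4 and 806, 792 and 730 in MC38-FUT9. Bst2 was thus the only gene of the 10 whose values in MC38-FUT9 reached into those of other lines.

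Rsad2 (ENSMUSG00000020641, minus strand of chromosome 12, 26442746 to 26456452) had 132, 1335 and 786 normalized counts in MC38-WT, 147, 158 and 532 in MC38-MOCK#1, 117, 51 and 25 in MC38-COSMC KO, 325, 171 and 59 in MC38-CMAS KO and 369, 117 and 65 in MC38-DKO. It had 86, 62 and 559 in MC38-MOCK#2, 834, 126 and 781 in the line labelled FUT4, and 8, 2 and 6 in MC38-FUT9. Cmpk2 (ENSMUSG00000020638, plus strand, 26469204 to 26479837) starts 12751 bases away and runs in the opposite direction. Its normalized counts were 34, 289 and 164 in MC38-WT, 61, 69 and 192 in MC38-MOCK#1, 27, 18 and 12 in MC38-COSMC KO, 101, 31 and 17 in MC38-CMAS KO and 93, 41 and 42 in MC38-DKO. They were 48, 47 and 260 in MC38-MOCK#2, 194, 35 and 201 in the line labelled FUT4 and 8, 2 and 4 in MC38-FUT9. The sample with the highest Rsad2 also had the highest Cmpk2 in every line except the one labelled FUT4, where samples 1 and 3 were close for both.

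The samples of a line differed widely, and the 10 genes differed together. The same sample was the highest for all 10 genes in MC38-WT (sample 2), MC38-MOCK#1 (sample 3), MC38-COSMC KO (sample 1), MC38-DKO (sample 1) and MC38-MOCK#2 (sample 3), and for 9 of 10 in MC38-CMAS KO (sample 1). In the line labelled FUT4, sample 2 was the lowest for all 10. The number of the high sample was not the same in all lines. The SD within lines on the log2 scale was 1.34 for Rsad2, 1.29 for Usp18, 1.2 for Isg15, 1.13 for Cmpk2, 1.04 for Parp14 and 0.98 for Uba7. It was lower for Parp9 (0.55), Herc6 (0.45), Bst2 (0.42) and Dtx3l (0.36). Among 13515 genes with a mean of at least 10 normalized counts the median of this SD was 0.16 and its 90th percentile 0.52, and 98.7% of those genes varied less than Rsad2 and 79.9% less than Dtx3l.

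**Figure D2:**
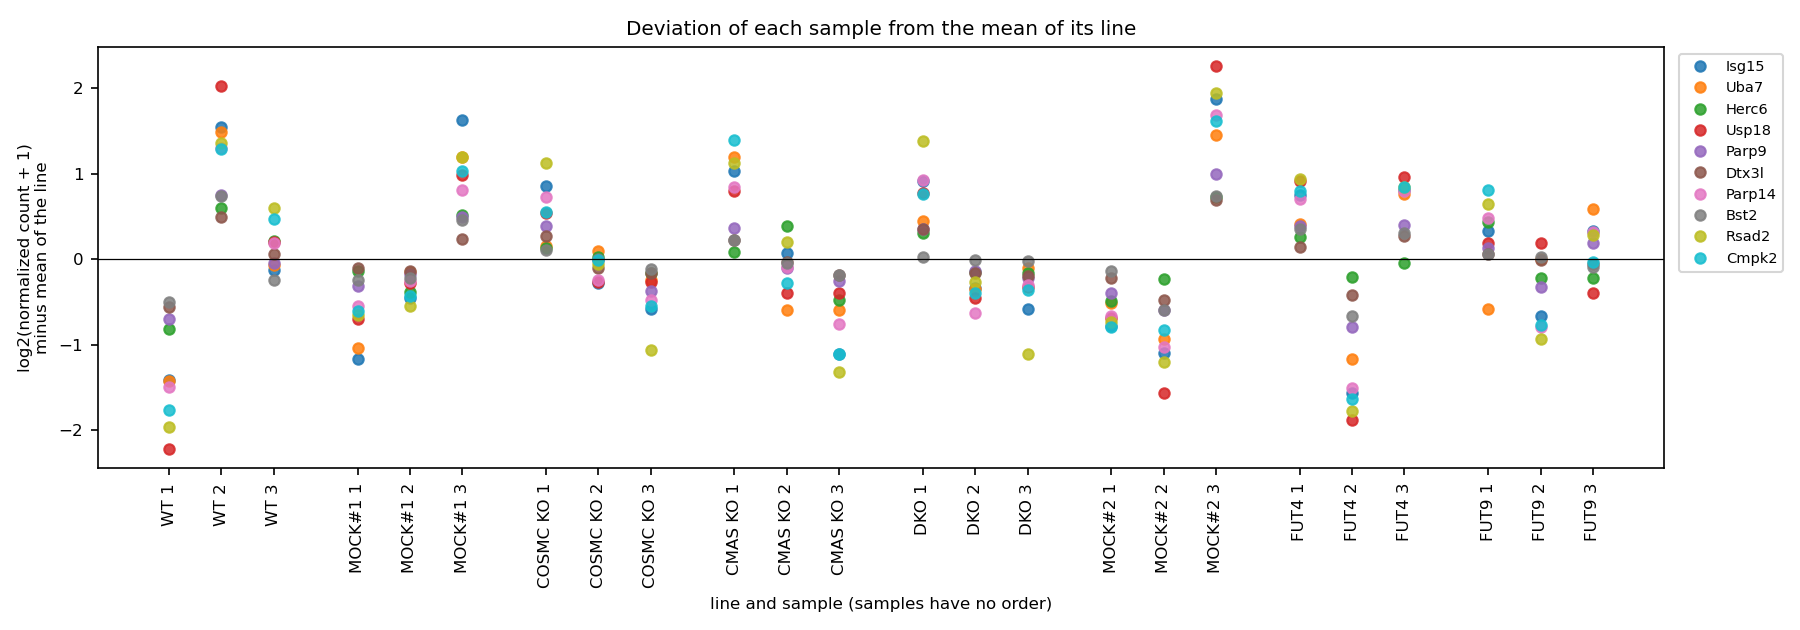
Deviation of each sample from the mean of its line, in log2(normalized count + 1), with 1 point per gene and sample and samples grouped by line. The 10 genes rise and fall together: all 10 points lie above 0 in sample 2 of MC38-WT and sample 3 of both mock lines, and below 0 in sample 1 of MC38-WT and sample 2 of the line labelled FUT4.

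Across all 24 samples the Pearson correlation between 2 of the genes was 0.73 to 0.98, with a median of 0.91 over 45 pairs, and it was 0.67 to 0.98 with a median of 0.91 once the line means had been subtracted. Parp9 and Parp14 were the closest pair (0.98) and Bst2 and Rsad2 the most distant (0.73). These are descriptions over samples that share lines and libraries. The genes outside the 10 whose pattern was most like the mean of the 10 over 24 samples were Xaf1 (0.99), Gbp3 (0.98), Igtp (0.98), Irgm1 (0.98), Ddx58 (0.97), Ifi35 (0.97), Oas1g (0.97), Tap1 (0.96), Oasl2 (0.96) and Trim25 (0.96). With line means removed, those most alike included Irgm1 (0.99), Parp12 (0.99), Xaf1 (0.98), Tap1 (0.97), Oasl2 (0.97), Rnf213 (0.97), Helz2 (0.97), Ddx58 (0.97) and Samd9l (0.97).

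No slope with passage passed the test for any of the 10 genes. In a fit of all 24 samples with the line as a term, the slope per passage lay between -0.15 (Rsad2) and 0.19 (Uba7) on the log2 scale, and limma called 0 of the 10 genes, with 0 at an unadjusted p below 0.05. Over all genes limma called 0% for passage, and 5.56% were at an unadjusted p below 0.05. A shared slope cannot show trends that differ between lines. The earliest passage, 4, was the highest for 10 of the 10 genes in MC38-COSMC KO and MC38-DKO and for 9 in MC38-CMAS KO. In MC38-MOCK#1 the latest, passage 6, was the highest for all 10. Slopes of single lines were not tested.

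Ratios between genes within a sample held in part. Parp9 to Dtx3l stayed between 0.707 and 1.27 in all 24 samples. Rsad2 to Cmpk2 ranged from 1 to 5.52. It was 3.88 to 4.79 in MC38-WT, 3.6 to 4.3 in the line labelled FUT4 and 3.22 to 5.52 in MC38-CMAS KO. All of these lay wholly above the 2.29 to 2.77 of MC38-MOCK#1 and the 1.32 to 2.15 of MC38-MOCK#2. Rsad2 to Usp18 showed this split in part, with 4.41 to 9.25 in MC38-WT and 6.10 to 7.41 in the line labelled FUT4 against 1.5 to 2.16 in MC38-MOCK#1 and 1.64 to 2.70 in MC38-MOCK#2. In MC38-CMAS KO it was 2.19 to 6.33 and overlapped MC38-MOCK#2. It was 1.25 to 3.25 in MC38-COSMC KO and 1.86 to 4.86 in MC38-DKO, which overlapped both mock lines. In MC38-FUT9 the ratios of Rsad2 rest on values of 8 or less. No test was made of the ratios.

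**Figure D3:**
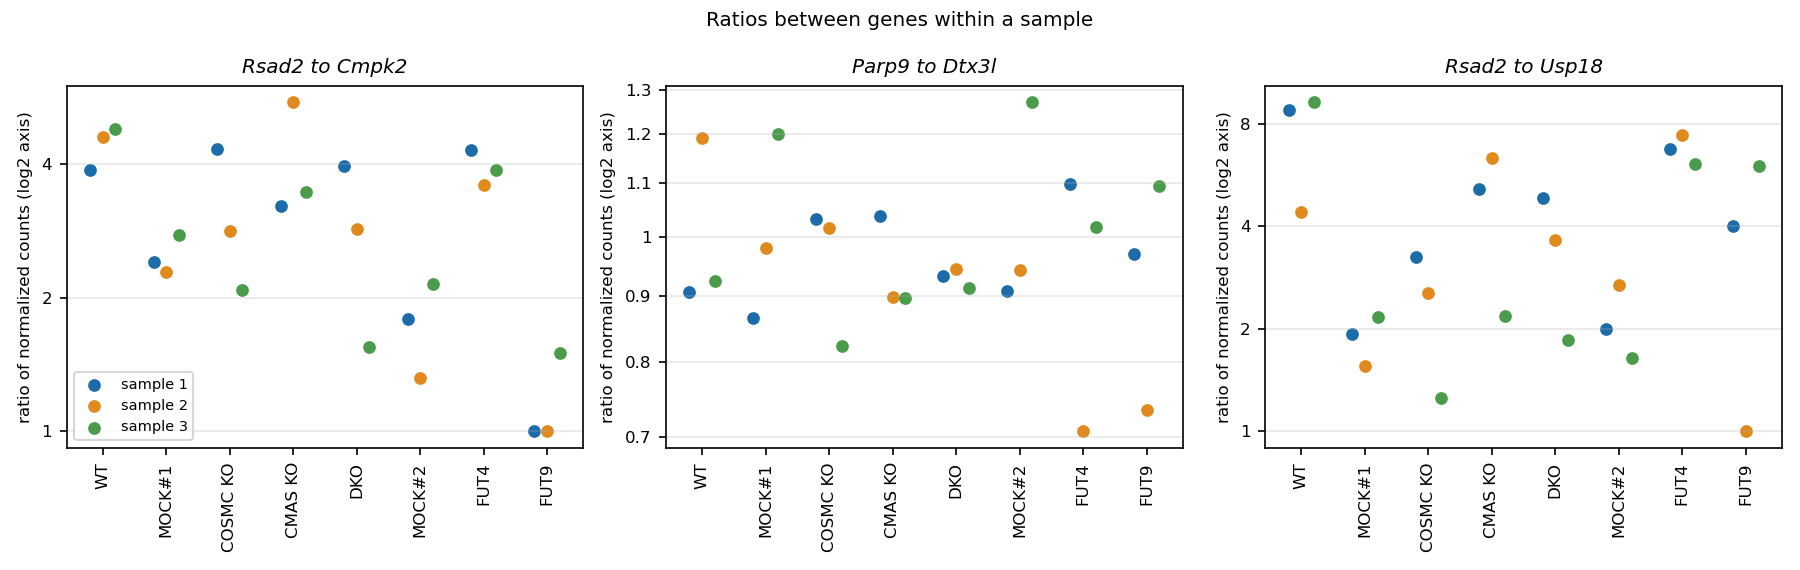
Ratios of normalized counts within each of the 24 samples (log2 axes, a different range in each panel), with 1 point per sample. Rsad2 to Cmpk2 and Rsad2 to Usp18 are higher in all samples of MC38-WT and of the line labelled FUT4 than in both mock lines. Rsad2 to Cmpk2 is higher than in both mock lines in all samples of MC38-CMAS KO as well. Parp9 to Dtx3l stays between 0.707 and 1.27.

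MC38-FUT9 had low values of most of the 10 genes. Its samples all lay below the other 21 samples for 9 of the 10, all but Bst2, where 5.51% of 20944 genes did so. Against MC38-MOCK#2, 9 of 10 genes fell (adjusted p from 0.00743 to 0.0215, limma with Benjamini-Hochberg adjustment over 21480 genes), where 12% of all genes were called lower and 12.1% higher. The samples of MC38-FUT9 and MC38-MOCK#2 did not overlap for the same 9, where 18.2% of all genes were lower without overlap. Usp18 fell by 4.76 on the log2 scale (standard error 0.93, adjusted p = 0.0114) and Rsad2 fell by 4.66 (standard error 0.85, adjusted p = 0.00912). The log2 fold change was -4.05 for Cmpk2, -3.98 for Parp14, -3.94 for Isg15 (standard error 0.77, adjusted p = 0.0118) and -3.52 for Uba7. It was nearer 0 for Parp9 (-1.77), Herc6 (-1.77) and Dtx3l (-1.61), and Bst2 had a log2 fold change of -0.51 (95% interval -1.23 to 0.21, adjusted p = 0.271). The median of the 10 was -3.73 against 0.01 over all genes. For Usp18 the difference rests on an estimated 6 reads in MC38-FUT9 against 322, a ratio of 71.1 with an exact 95% interval of 32.3 to 195 that covers counting error only.

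The libraries of MC38-FUT9 were among the deepest, with an estimated 13530000 to 16230000 reads, and those of MC38-MOCK#2 had 8190000 to 12070000 reads. The leukocyte marker sum was 25 to 28 against 25 to 44. The part of depth in the result was not tested. Without sample 1, 2 or 3 of MC38-FUT9 the count called was 3, 0 or 1, with 9 at an unadjusted p below 0.05 each time (35% of all genes with every sample kept). With 1 sample of MC38-MOCK#2 left out it was 8 or 9. In a comparison chosen after the data had been seen, with the line labelled FUT4 in place of MC38-MOCK#2, 9 of 10 were lower in MC38-FUT9, where 15.8% of all genes were called lower. By the labels the samples of a line come from successive passages, except that 2 of the line labelled FUT4 share passage 7, and p-values measure the spread between such samples, which may in part be technical.

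Other genes of the pathway fell beside them in MC38-FUT9. Ube2l6, the ISG15 carrier, had 23, 14 and 25 normalized counts against 111, 107 and 224 in MC38-MOCK#2, and fell by 2.73 on the log2 scale (adjusted p = 0.00241, limma). Trim25, a ligase for ISG15 and ubiquitin, fell by 0.86 (adjusted p = 0.021), and Arih1 had a log2 fold change of 0.11 (adjusted p = 0.249). Of the transcription factors that act on these genes, Irf7 (log2 fold change -4.26) and Stat2 (-1.64) fell, and Irf9 had -1.2 (adjusted p = 0.0935). Of 20 other interferon-stimulated genes 15 fell and 0 rose, with a median of -3.65, among them Lgals3bp (-6.45), Ifi44 (-5.42) and Oas1a (-5.16). The receptor genes Ifnar1 (484, 485 and 527 against 384, 388 and 525) and Ifnar2 (160, 167 and 176 against 159, 173 and 160) had adjusted p of 0.272 and 0.853. Of 5 interferon receptor genes tested, Il10rb fell by 0.64 and 0 rose.

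Relatives of the 10 genes that belong to the same enzyme families moved in both directions. Of 14 other PARP family genes, 3 fell in MC38-FUT9 against MC38-MOCK#2 (log2 fold change -1.81 for Parp12, -1.73 for Parp10 and -1.26 for Parp4) and 4 rose, namely Parp8 by 0.72, Tnks by 0.33, Parp2 by 0.32 and Tnks2 by 0.31. Of the Deltex genes tested 2 of 3 rose, Dtx3 by 0.71 and Dtx4 by 0.53. Of 5 other activating enzymes for ubiquitin-like proteins 1 rose, Uba2 by 0.45, and Uba1 had a log2 fold change of 0.09 (adjusted p = 0.578). Of 4 other HERC genes Herc3 fell by 1.08 and Herc2 rose by 0.24, and 0 of 3 other proteases of this kind were called by limma, with 2 at an unadjusted p below 0.05. Of 20 interferon ligand genes 1 was tested (Ifne) and 0 were called, with 0 at an unadjusted p below 0.05. The leukocyte markers (2 tested) gave 0 calls and 0 at an unadjusted p below 0.05, and the epithelial markers (6 tested) gave 0 calls and 1.

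**Figure D4:**
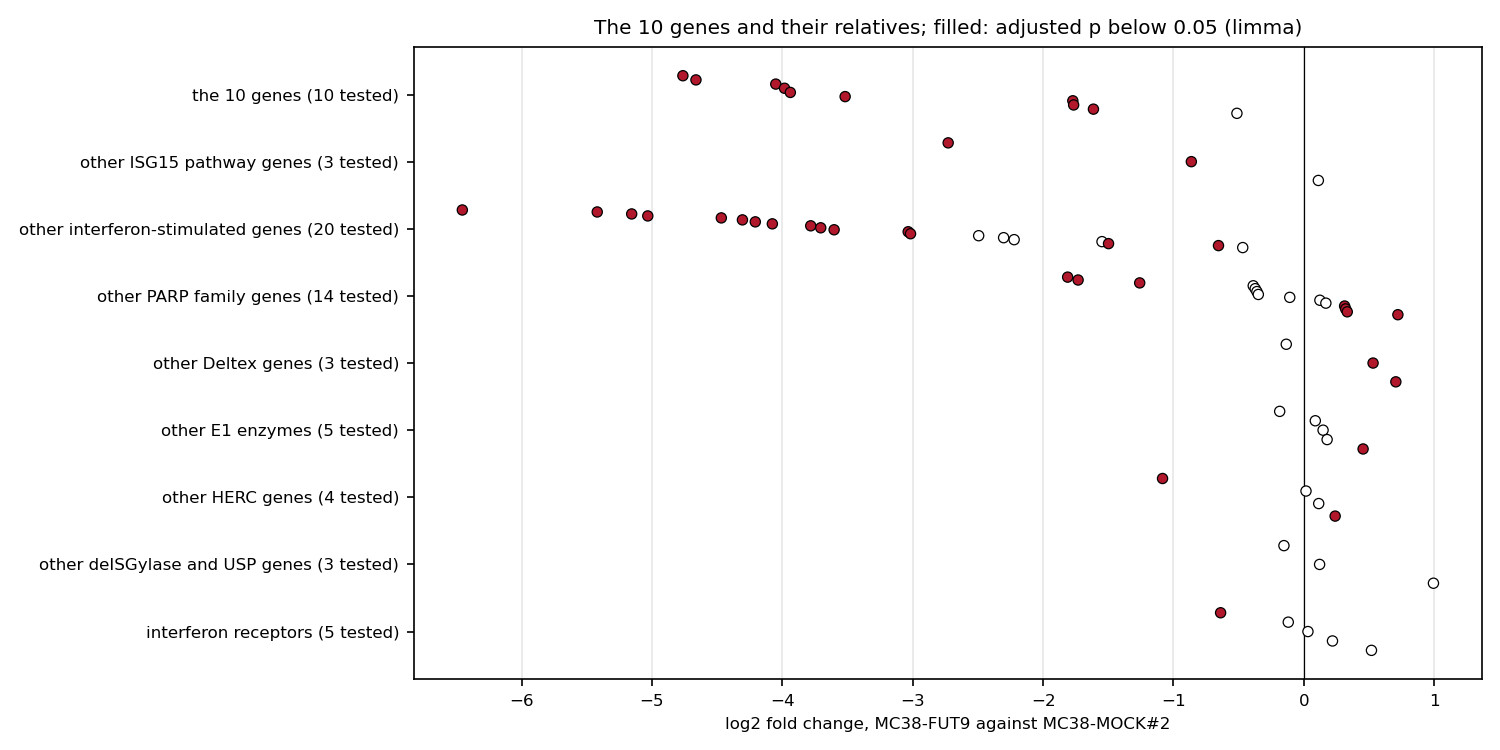
Log2 fold change of MC38-FUT9 against MC38-MOCK#2 (limma) for the 10 genes and for 8 lists of related genes, with 1 point per gene and filled points at an adjusted p below 0.05. The 10 genes and the other interferon-stimulated genes reach values of -4.76 and -6.45, whereas the points of the other enzyme family lists spread from -1.81 to 0.99 around 0.

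Across the 8 lines together, 9 of the 10 genes differed in a moderated F test (adjusted p from 0.000134 for Rsad2 to 0.00826 for Parp9, limma), all but Bst2 (adjusted p = 0.135), where 48.2% of all genes did so. When MC38-FUT9 was left out, a setting chosen after the data had been seen, 0 of 10 were called by limma among the remaining 7 lines, with 1 at an unadjusted p below 0.05. The share of all genes called there was 36.6%, and the lowest adjusted p of the 10 was 0.0964, for Cmpk2.

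In MC38-COSMC KO all 10 genes had negative log2 fold changes, of which 4 passed the test. Against MC38-MOCK#1, 4 of 10 fell in MC38-COSMC KO, where 5.39% of 22172 genes were called lower and 6.17% higher. The log2 fold change was -2.31 for Cmpk2 (standard error 0.48, adjusted p = 0.0242, limma), -2.3 for Usp18 (standard error 0.45, adjusted p = 0.0194), -1.63 for Parp14 (adjusted p = 0.0481) and -0.73 for Dtx3l (adjusted p = 0.0213). Rsad2 had -2.10 (adjusted p = 0.0839), Isg15 -1.42 (0.261), Parp9 -0.81 (0.0855), Bst2 -0.67 (0.0555), Uba7 -0.65 (0.488) and Herc6 -0.44 (0.287). The authors compared the same lines with the edgeR exact test on counts, at a false discovery rate below 0.05. They then set aside most of the called genes that also differed between MC38-WT and the mock line, and tabulated immune terms for the rest. Isg15, Rsad2, Parp9, Bst2, Parp14 and Dtx3l are among the genes listed under those terms. Of these, Parp14 and Dtx3l were called here, and Isg15, Rsad2, Parp9 and Bst2 were not. A gene absent from those terms may still have been called by the authors. For 7 of the 10 genes every MC38-COSMC KO sample lay below every MC38-MOCK#1 sample, which 14.1% of all genes did. Ube2l6 also fell, by 1.12 (adjusted p = 0.032), as did 4 of 20 other interferon-stimulated genes (Oas1a, Trim30a, Ifih1 and Samhd1). Of 14 other PARP family genes 4 fell and 2 rose. Of 20 interferon ligand genes 1 was tested here and was called higher (log2 fold change 1.53, adjusted p = 0.0463, limma). That call rests on values of 3 normalized counts or less.

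The number of calls changed with single samples. Without sample 1, 2 or 3 of MC38-MOCK#1 it was 1, 0 or 2, and without sample 1, 2 or 3 of MC38-COSMC KO it was 1, 0 or 0. It was also 0 without a mean-variance trend, and 0 when the variance was estimated over all 8 lines, but 6 when genes with a mean under 10 normalized counts were left out first. Against MC38-WT, which differs from MC38-COSMC KO in passage and puromycin as well, limma called 0 of 10, with 4 at an unadjusted p below 0.05, where 0.581% of all genes were called and 14.2% were at an unadjusted p below 0.05. The log2 fold changes there ran from -3.26 (Rsad2, adjusted p = 0.142) to -0.14 (Herc6), with -2.64 for Cmpk2, -2.37 for Isg15 and -1.46 for Parp14.

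In MC38-CMAS KO all 10 log2 fold changes against MC38-MOCK#1 were negative as well, and 1 passed the test: Dtx3l fell by 0.80 (standard error 0.14, adjusted p = 0.0254, limma), where 2.73% of 22024 genes were called lower. Usp18, Parp9, Dtx3l, Parp14 and Bst2, 5 of the 10, were lower with no overlap of samples, as were 12.5% of all genes. Usp18 had a log2 fold change of -1.76 (adjusted p = 0.0959), Parp14 -1.57 (0.111), Parp9 -0.90 (0.0836) and Bst2 -0.74 (0.0848). The count of calls was 0 when any sample of either line was left out and 3 when genes with a mean under 10 normalized counts were left out first. This comparison, that of MC38-COSMC KO and that of MC38-DKO share the samples of MC38-MOCK#1. Sample 3 of that line was the highest for all 10 genes, as given above.

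MC38-DKO, in which both genes were targeted, showed log2 fold changes from -1.47 (Usp18) to -0.10 (Herc6) against MC38-MOCK#1. Of the 10 genes 0 were called by limma, with 1 (Usp18) at an unadjusted p below 0.05, where 0.092% of all genes were called and 7.51% were at an unadjusted p below 0.05. The difference between lines with and without the C1galt1c1 knockout was also compared between lines with intact and those with targeted Cmas. It was more negative with intact Cmas for 6 of 10 genes (limma over 12 samples), where 11.1% of all genes were called in this direction. These were Cmpk2 with -2.82 (adjusted p = 0.024), Usp18 with -2.59 (0.0109), Parp14 with -2.27 (0.0263), Parp9 with -1.30 (0.0122), Dtx3l with -1.24 (0.00156) and Bst2 with -1.12 (0.00188). For each of these 6 the log2 mean of MC38-DKO was above that of MC38-CMAS KO, so the difference with targeted Cmas was positive. That difference was not tested by itself. The count was 1 when the variance was estimated over all 8 lines and 3 without a mean-variance trend, and the C1galt1c1 RNA did not separate MC38-DKO from MC38-CMAS KO.

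**Figure D5:**
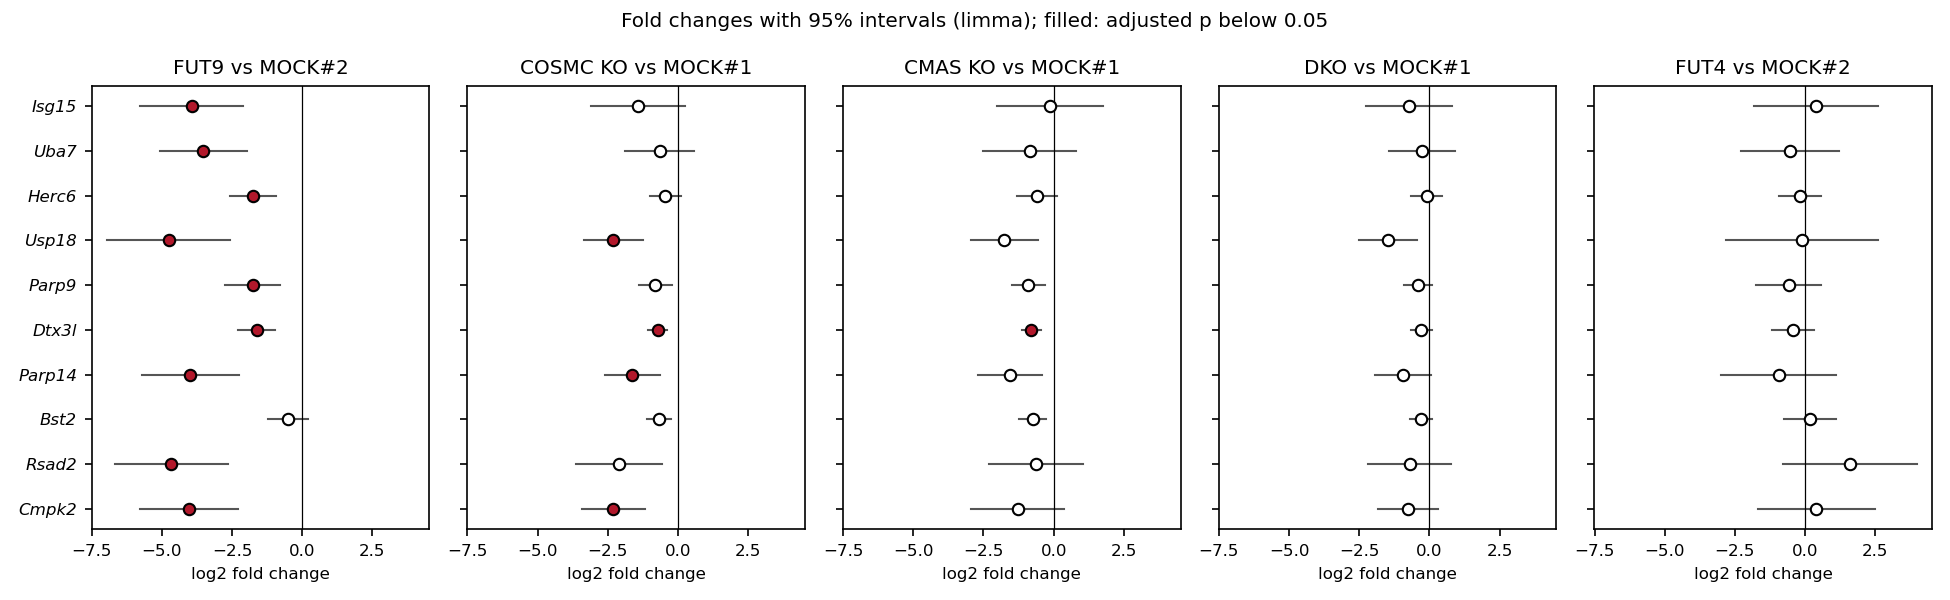
Log2 fold changes of the 10 genes (limma, with 95% intervals) in 5 comparisons, with filled points at an adjusted p below 0.05. In MC38-FUT9 against MC38-MOCK#2 all genes but Bst2 are filled, 4 are filled in MC38-COSMC KO and 1 in MC38-CMAS KO, and none in MC38-DKO or in the line labelled FUT4.

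The remaining comparisons gave no calls among the 10 genes. In the line labelled FUT4 against MC38-MOCK#2 the log2 fold changes ran from -0.94 (Parp14, 95% interval -3.00 to 1.1) to 1.59 (Rsad2, 95% interval -0.80 to 3.97), and limma called 0 of 10, with 0 at an unadjusted p below 0.05, where 16.1% of all genes were called and 29.3% were at an unadjusted p below 0.05. MC38-WT against MC38-MOCK#1 gave -0.74 (Usp18) to 1.16 (Rsad2) and 0 of 10 calls by limma, with 0 at an unadjusted p below 0.05, where 5.51% of all genes were called and 20.7% were at an unadjusted p below 0.05. MC38-MOCK#2 against MC38-MOCK#1 gave -0.81 (Usp18, 95% interval -3.13 to 1.5) to 0.74 (Uba7) and 0 of 10 calls by limma, with 0 at an unadjusted p below 0.05, where 11.3% of all genes were called and 26.4% were at an unadjusted p below 0.05. The comparisons of MC38-FUT9 and of the line labelled FUT4 share the samples of MC38-MOCK#2. Within these lines the genes differed several-fold between samples, and differences inside these intervals were not detectable here.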

How the data were processed

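RNA of 24 MC38 samples (8 lines, 3 samples each) was sequenced as single reads from a stranded polyA library kit. After quality trimming, HISAT2 2.0.4 placed the reads on GRCm38 and featureCounts (Subread 1.5.0-p3) assigned them to genes. The authors used edgeR 3.18.1 to adjust for library size and composition. Each deposited value was treated as a score, because the authors normalized and then rounded it. The values are not raw counts. The deposited gene length column was used for values per kb.

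Genes with more than 4 zeros among 6 samples (8 of 12, 16 of 24) were left out. Log2 of the value plus 1 was tested, two-sided, over all genes with limma 3.58.1 in R 4.3.3 (lmFit, eBayes with a mean-variance trend, Benjamini-Hochberg), with an adjusted p below 0.05 as the threshold. Reads per library were estimated from gaps in the rounded values. Scripts were tested on simulated data. Summaries were made with pandas 2.3.3 and numpy 2.4.6 under Python 3.11.15, and plots with matplotlib 3.10.9.

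The 10 genes and the lists of related genes were chosen with earlier results of these data known. Named beside them are genes of those lists, the targeted genes and the 10 genes closest in pattern. Alternatives were the pseudocount, the filter, other scalings, the trend, the replicate block, a variance over all 8 lines, a stricter threshold and each sample left out. Coordinates are of GRCm38 and symbols of GENCODE. Protein sequences were not used here, and 1 gene of the lists is not reported here.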

Additional observations from a re-analysis of the deposited data

Results flagged for a closer look

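The difference between lines with and without the C1galt1c1 knockout differed between lines with intact and with targeted Cmas for 6 of the 10 genes (limma, interaction over 12 samples). MC38-COSMC KO minus MC38-MOCK#1 was more negative than MC38-DKO minus MC38-CMAS KO by -2.59 for Usp18, -1.30 for Parp9, -1.24 for Dtx3l, -2.27 for Parp14, -1.12 for Bst2 and -2.82 for Cmpk2 on the log2 scale. The first difference was negative and the second positive for each of these 6 genes. Mean normalized counts of Usp18 were 141 ± 91.6 (SD, n = 3) in MC38-MOCK#1, 25.3 ± 9.24 in MC38-COSMC KO, 39 ± 20.8 in MC38-CMAS KO and 47.7 ± 24.6 in MC38-DKO. The reference of the second difference, MC38-CMAS KO, had lower log2 means than MC38-MOCK#1 for all 10 genes, and the C1galt1c1 RNA of MC38-DKO overlapped that of MC38-CMAS KO. Their part in the result was not tested. No group of this series has 4 or more samples, so none was examined for single outlying samples.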

How the results depend on the processing

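No scaling alternative moved the median of all genes by over 0.1 on the log2 scale. The count of the 10 genes called in MC38-COSMC KO against MC38-MOCK#1 (4) was 0 without a trend, 0 when all 8 lines shared the variance, 3 to 6 in the other settings without a block, and 0 to 2 with 1 sample left out. In MC38-CMAS KO (1) it was 3 with a mean of at least 10, 0 without a trend, 0 with an absolute log2 fold change above 1 and 0 to 0 with 1 sample left out. In MC38-FUT9 (9) it was 0 to 9 with 1 sample left out and 7 to 9 in the other settings. The interaction (6) gave 3 without a trend, 1 when all 8 lines shared the variance and 4 to 7 with 1 sample left out. The difference among 8 lines (9) gave 8 to 10 with 1 sample left out and 0 with MC38-FUT9 left out. The cause of these changes was not tested. A refit without 1 sample cannot tell the part of that sample from the part of having fewer samples. With the replicate number as a block, MC38-COSMC KO had 0 calls and MC38-CMAS KO 0. Same-numbered samples correlated with r from -0.21 to 0.25. The numbers were taken to pair the samples if all 3 r were over 0.1, which held in 0 of 8 comparisons. All 3 were positive for MC38-FUT9 against MC38-MOCK#2 (0.093, 0.193 and 0.185). They were also positive for MC38-MOCK#2 against MC38-MOCK#1 (0.165, 0.082 and 0.254). Signs were followed for all 10 genes where a comparison had calls, and elsewhere for the genes with the lowest and highest value. For MC38-COSMC KO against MC38-WT, genes at an unadjusted p below 0.05 (limma) were followed as well. Among these, samples left out turned the sign of values that had not passed the test: Usp18 in MC38-WT against MC38-MOCK#1 (-1.75 to 0.37), Isg15 (-0.72 to 0.68) and Rsad2 (-1.19 to 0.027) in MC38-CMAS KO, Herc6 in MC38-DKO (-0.29 to 0.16) and Herc6 in MC38-COSMC KO against MC38-WT (-0.54 to 0.16). Samples 1 and 3 of the line labelled FUT4 taken as 1 sample, a setting chosen after the data had been seen, gave 0 calls against MC38-MOCK#2, as before. Values of 1 to 8 normalized counts in MC38-FUT9 limit how well the size of the fall is known. Of 931 single-gene fold changes and slopes followed in this way under an alternative, 6 changed sign, all of them with 1 sample left out. Genes between the lowest and highest value of a comparison without calls, some of them near 0, were mostly not followed. The share that changed sign therefore does not cover them.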
